A study of Mus musculus with 16 samples.

Results

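Far2, Ecscr, Il5ra and Gabrp were among the genes whose signal was most above the untreated level in mouse colon organoids given tumour necrosis factor alpha (TNFa). None of them is among the chemokine, cytokine and feedback genes by which a TNFa response is usually read. They make up 4 of the 18850 genes on the array and 4 of the 11766 that were bright enough to test, each with 1 probe set. The genes were chosen by the size of their TNFa difference in wild-type (WT) or mutant organoids, so their TNFa differences are given here as a description, without a test. Ordered by the difference over all tested genes, Ecscr ranked 5, Il5ra 6, Far2 8 and Gabrp 34 in WT organoids, and Far2 ranked 5, Gabrp 8, Ecscr 10 and Il5ra 23 in mutant organoids. In the WT order Clca4b (2.00 log2) stood just before Ecscr (1.98) and Il1a (1.86) just after Far2 (1.89).

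Far2 encodes a peroxisomal reductase that turns long fatty acyl-CoA into fatty alcohol, a building block of waxes and ether lipids. Ecscr encodes a small membrane protein first described in endothelial cells. Il5ra encodes the chain of the interleukin 5 receptor that binds the cytokine and pairs with the shared beta chain Csf2rb, and it is best known in eosinophils and some B cells. Gabrp encodes the pi subunit of the GABA-A receptor, a chloride channel opened by the transmitter GABA, and this subunit is found mostly outside the brain, in epithelia. TNFa is a cytokine of intestinal inflammation that binds receptors on epithelial cells and starts NF-kB and stress kinase signalling, and ATF2 and ATF7 are related transcription factors that stress kinases phosphorylate.

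The 16 arrays, 1 per sample, formed 4 groups of 4: untreated WT organoids, WT organoids given recombinant TNFa at 50 ng/ml for 12 h, untreated mutant organoids, and mutant organoids given the same TNFa. All organoids grew in ENR medium. The mutant samples are labelled ATF2 fl/fl / ATF7 KO as genotype, whereas their descriptions name ATF2 as the knockout and ATF7 as the floxed gene. The sources used here do not say whether the floxed allele was recombined. The labels tie no sample to a separate animal or culture, so p-values measure only the spread between these samples, which may be technical. Signals are log2 values after RMA, and a signal below 6.56 log2, the highest of the arrays' 40th percentiles, is called dim here; a fold change from a dim group is approximate. WT + TNFa 2 was the array least like its group (mean r with the 3 others 0.988; for those 0.993 each).

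RefSeq start sites (GRCm38.p6) were at hand for 3 of the 4 genes, and the 250 bases before each are printed because the genes were high together in the TNFa groups. The Gabrp start site used lies inside the gene's span in the RefSeq gene table, which ends at 33578978. The last bases of that window therefore lie within this span. Capitals mark matches, on either strand, to an AP-1 site (TGACTCA or TGAGTCA) or a TATA box (TATAAA or TATATA). Also searched were the cAMP response element (TGACGTCA), which ATF2 and ATF7 bind, and the kB consensus, which NF-kB binds. Each window held at most 1 match to any of them.
Far2, chr6:148047166-148047415, plus strand: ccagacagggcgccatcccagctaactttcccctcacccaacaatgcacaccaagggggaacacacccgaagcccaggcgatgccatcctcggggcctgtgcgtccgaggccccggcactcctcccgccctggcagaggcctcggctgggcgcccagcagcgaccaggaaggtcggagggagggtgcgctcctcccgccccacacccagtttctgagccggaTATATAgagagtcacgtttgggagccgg
Il5ra, chr6:106749038-106749287, minus strand: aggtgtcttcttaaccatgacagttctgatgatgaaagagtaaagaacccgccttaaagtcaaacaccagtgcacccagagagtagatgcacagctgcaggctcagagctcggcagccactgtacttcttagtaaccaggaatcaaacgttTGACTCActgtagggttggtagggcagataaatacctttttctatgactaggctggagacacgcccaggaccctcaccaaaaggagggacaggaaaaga
Gabrp, chr11:33578958-33579207, minus strand: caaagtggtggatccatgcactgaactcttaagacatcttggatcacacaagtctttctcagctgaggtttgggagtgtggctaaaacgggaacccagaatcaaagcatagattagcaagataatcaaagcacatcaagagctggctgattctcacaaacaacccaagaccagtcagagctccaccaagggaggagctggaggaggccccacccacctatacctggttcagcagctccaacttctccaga

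The Il5ra window held 1 AP-1 site, TGACTCA, beginning at position -99 from the start, and 4.46% of all 32851 windows of this length held one. The Far2 window held 1 TATA box, at position -28, against 15.6% of all windows. No window of the 3 held the kB consensus, found in 7.25% of all windows, or the cAMP response element, found in 1.55%. The Far2 window had a G and C content of 67.2%, above the median of 52.4% over all windows, while those of Il5ra (48.0%) and Gabrp (49.2%) lay below it. A match is a run of letters and not a measured binding site, and the absence of one says only that these letters are not in this window.

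Far2 was the steadiest of the 4 genes. Its signal was 6.81, 6.83, 6.60 and 6.38 log2 in WT samples 1 to 4 and 8.58, 8.49, 8.54 and 8.56 in the same-numbered WT samples with TNFa. In mutant organoids it was 7.04, 7.14, 6.52 and 6.70 without TNFa and 9.06, 9.10, 9.33 and 9.13 with it. The treated arrays lay above all untreated ones by at least 1.66 log2 in WT and 1.92 in mutant, and the 4 WT arrays with TNFa lay close together. The group means (± SD, n = 4) were 6.66 ± 0.21 for WT, 8.54 ± 0.04 for WT + TNFa, 6.85 ± 0.29 for mutant and 9.15 ± 0.12 for mutant + TNFa. TNFa organoids were thus higher by 1.89 log2 in WT (SE 0.12, 95% interval 1.63 to 2.14), or 3.69-fold, and by 2.31 in mutant (2.05 to 2.56), or 4.94-fold. The untreated means lay just above the dim limit, so Far2 was measured on both sides of its change.

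Ecscr was dim in every untreated sample and, with TNFa, above the arrays' 40th percentile in 4 of 4 WT and 3 of 4 mutant samples. Its signal in WT samples 1 to 4 was 5.94, 5.84, 5.55 and 5.38 log2, and with TNFa it was 7.42, 7.62, 7.72 and 7.89. In mutant organoids it was 4.85, 4.19, 4.96 and 4.89 without TNFa and 6.89, 6.47, 6.85 and 6.77 with it. Within each genotype the treated and untreated arrays were far apart, and the treated mutant arrays lay below every treated WT array. In WT the gene went from between the 22.4 and 31.4 percentiles of all genes on an array to between the 55.9 and 63.3 percentiles. The group means were 5.68 ± 0.26, 7.66 ± 0.20, 4.72 ± 0.36 and 6.75 ± 0.19 for WT, WT + TNFa, mutant and mutant + TNFa. The TNFa difference was 1.98 log2 in WT (SE 0.16, 95% interval 1.64 to 2.32), about 3.96-fold, and 2.03 in mutant (1.69 to 2.36), about 4.07-fold. Ecscr passed the filter on low values through its TNFa arrays alone, since 0 of the 8 untreated arrays were above their own 40th percentile.

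Il5ra also started in the dim range, and its treated WT samples were widely spread. The signal in WT samples 1 to 4 was 6.28, 6.52, 5.87 and 6.0 log2, and with TNFa 7.84, 7.59, 8.80 and 8.36. In mutant organoids it was 5.06, 6.09, 6.04 and 5.25 without TNFa and 7.18, 6.70, 7.51 and 6.87 with it. Treated and untreated arrays did not overlap in either genotype, and the gap was 1.06 log2 in WT and 0.61 in mutant. The means were 6.17 ± 0.29 for WT, 8.15 ± 0.54 for WT + TNFa, 5.61 ± 0.53 for mutant and 7.07 ± 0.36 for mutant + TNFa. The TNFa difference was 1.98 log2 in WT (SE 0.27, 95% interval 1.41 to 2.55), about 3.94-fold, and 1.45 in mutant (0.89 to 2.02), about 2.74-fold. Of the untreated arrays, 1 in WT and 0 in mutant were above their own 40th percentile, so this gene too passed the filter mainly through the treated groups.

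Gabrp was the most variable of the 4. Its signal in WT samples 1 to 4 was 6.56, 7.17, 6.18 and 5.73 log2, and with TNFa 7.82, 7.01, 7.92 and 7.74. WT sample 2 was the highest untreated array and the treated sample 2 the lowest treated one, so the WT groups overlapped. In mutant organoids Gabrp was 5.68, 6.41, 6.63 and 6.74 log2 without TNFa and 9.03, 8.70, 7.86 and 8.53 with it, and these groups were separate by 1.12 log2. The means were 6.41 ± 0.61 and 7.62 ± 0.41 in WT without and with TNFa, and 6.36 ± 0.48 and 8.53 ± 0.49 in mutant. The TNFa difference was 1.21 log2 in WT (SE 0.30, 95% interval 0.57 to 1.86), about 2.32-fold, and 2.17 in mutant (1.52 to 2.81), about 4.49-fold. Leaving out 1 array moved the WT difference between 0.99 log2 (without WT 4) and 1.47 (without WT 2), and without WT + TNFa 2 it was 1.42. Both untreated means were in the dim range.

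**Figure D1:**
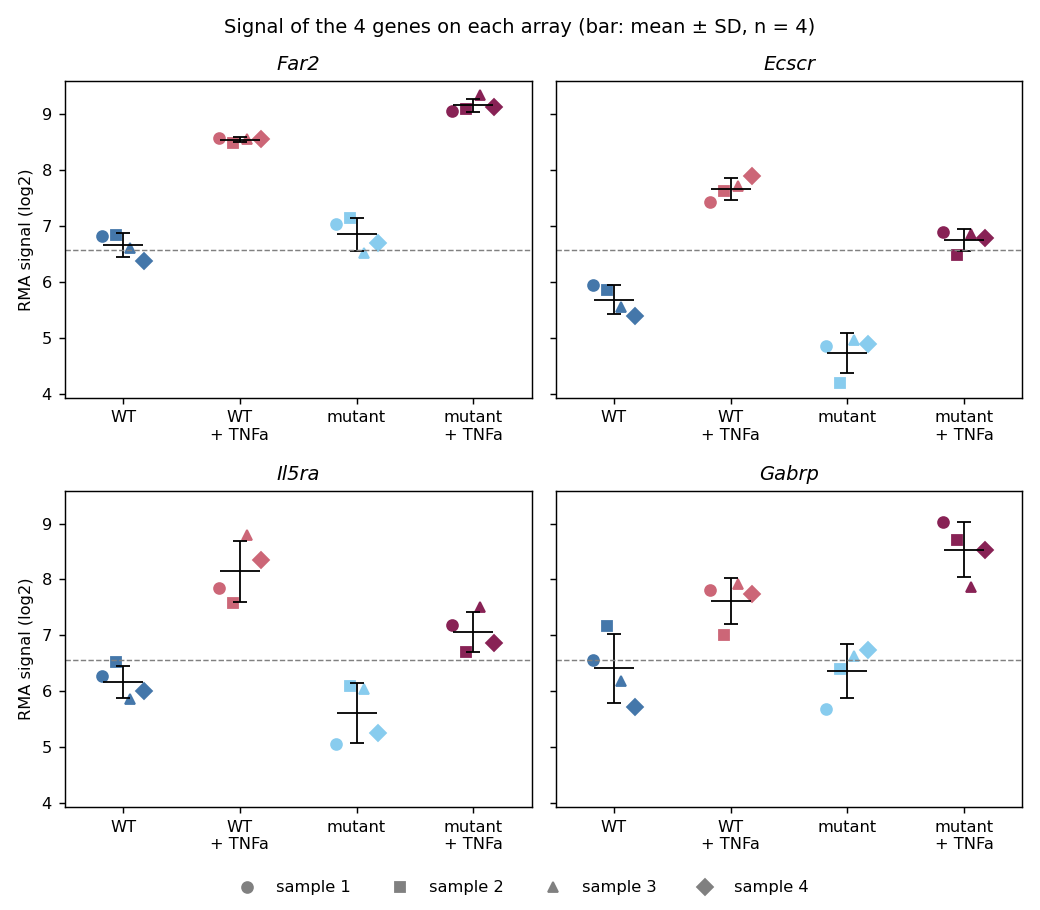
RMA signal (log2, vertical axis) of Far2, Ecscr, Il5ra and Gabrp on each of the 16 arrays in the 4 groups; symbols give the sample number, bars the mean and SD of 4 arrays, and the dashed line the dim limit of 6.56 log2. The treated arrays lie above the untreated ones of the same genotype for every gene except Gabrp in WT, where sample 2 at 7.17 without TNFa is above sample 2 at 7.01 with it.

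All 4 genes had treated arrays wholly above untreated ones in mutant organoids, and 3 of the 4 in WT; over all tested genes this held for 7.88% in mutant and 6.82% in WT. The genes were chosen on this contrast, so these counts carry no support. The order of the group means differed between the genes. Far2 ran from WT through mutant and WT with TNFa to mutant with TNFa, and its lowest pair overlapped. Ecscr and Il5ra ran from mutant through WT and mutant with TNFa to WT with TNFa; each step of Ecscr was free of overlap, whereas the lowest pair of Il5ra overlapped. Gabrp ran from mutant through WT and WT with TNFa to mutant with TNFa, and each neighbouring pair in that order overlapped.

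The genotype comparisons ask whether the mutant organoids differed from WT in the level of these genes. They did not choose the genes, but their arrays also enter the TNFa differences that did, so they are not fully independent of the choice. Without TNFa 1 of the 4 genes was called at an adjusted p under 0.05 (limma, Benjamini-Hochberg over all tested genes), against 2.48% of all genes, and with TNFa 3 of the 4, against 2.69%. The genes were chosen for their TNFa differences, and Ecscr and Il5ra passed the filter wholly or mainly through their TNFa arrays. These counts are therefore a description and are not comparable with the shares. With TNFa, Ecscr was lower in mutant organoids (log2 difference -0.92, SE 0.16, 95% interval -1.26 to -0.58, adjusted p = 0.00344, 1.89-fold). Without TNFa the call was also Ecscr, with -0.96 log2 (SE 0.16, interval -1.30 to -0.62, adjusted p = 0.00222). That untreated call compares groups that were both dim, in a gene tested only because of its TNFa arrays, so no fold is given for it. The mutant and WT arrays of Ecscr did not overlap in either comparison.

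Far2 was higher in mutant organoids with TNFa by 0.61 log2 (SE 0.12, 95% interval 0.36 to 0.87, adjusted p = 0.00948), a 1.53-fold difference with no overlap of arrays. Without TNFa the Far2 difference was 0.19 log2 (-0.06 to 0.45, adjusted p = 0.553), and the arrays overlapped. Il5ra was lower in mutant organoids with TNFa by 1.08 log2 (difference -1.08, SE 0.27, 95% interval -1.65 to -0.51, adjusted p = 0.0387), or 2.12-fold, with a gap of only 0.07 log2 between the groups. That call was lost when any 1 of 7 arrays was left out: WT 1 (adjusted p = 0.0508), WT 4 (0.0511), WT + TNFa 3 (0.119), WT + TNFa 4 (0.0910), mutant + TNFa 1 (0.0809), mutant + TNFa 2 (0.134) or mutant + TNFa 4 (0.118). It was also lost with no filter on dim genes (0.0624), with a variance trend and robust fitting (0.0517) and with only the arrays compared (0.0710). Without TNFa the Il5ra difference was -0.56 log2 (-1.12 to 0.01, adjusted p = 0.389). Gabrp did not pass in either comparison, with -0.04 log2 without TNFa (-0.69 to 0.60, adjusted p = 0.975) and 0.91 with it (0.27 to 1.55, adjusted p = 0.154).

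The difference between the genotypes in the TNFa change is given with its interval and no test, because a gene picked for a large change in 1 genotype is not free in this contrast. Mutant minus WT, it was 0.42 log2 for Far2 (95% interval 0.06 to 0.78), 0.04 for Ecscr (-0.44 to 0.52), -0.53 for Il5ra (-1.33 to 0.28) and 0.95 for Gabrp (0.04 to 1.86). The Ecscr and Il5ra intervals lie on both sides of 0 and are wide. Those of Far2 and Gabrp lie above 0, but no interval is adjusted for the number of genes, so neither is a call. Over all 11766 tested genes 1 was called in this contrast. For Far2, Il5ra and Gabrp the intervals are wide enough to hold both a small and a more than 1.5-fold difference of the changes.

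**Figure D2:**
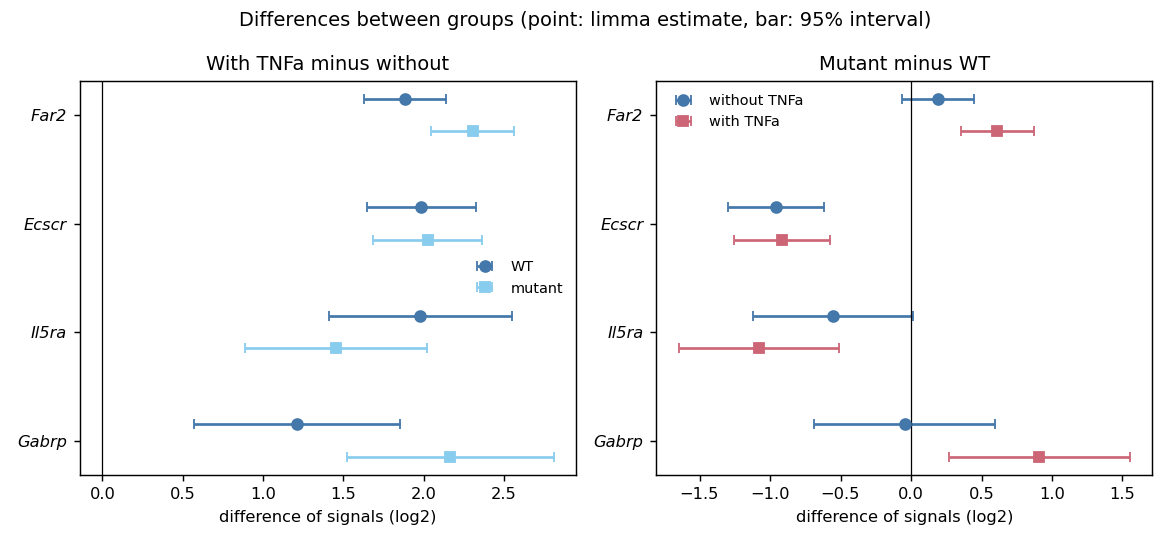
Differences between group means (log2, horizontal axis) for the 4 genes, with 95% intervals from the limma fit to 16 arrays; left, TNFa minus untreated in WT (circles) and mutant (squares), right, mutant minus WT without TNFa (circles) and with it (squares). On the right, both Ecscr intervals lie below 0, and with TNFa those of Far2 and Gabrp lie above 0 and that of Il5ra below; the Gabrp difference did not pass after adjustment.

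The genes next to each of the 4 on its chromosome, 2 measured ones on each side in the RefSeq gene table, were examined to see whether a change extended beyond the gene itself. Of 16 such neighbours 11 were tested. With TNFa 2 rose and 0 fell in WT (over all tested genes 5.03% rose and 5.75% fell), and 2 rose and 0 fell in mutant (3.51% rose and 2.47% fell). Both are the genes that follow Ecscr. The immediate neighbour, 1700066B19Rik, is an uncharacterised gene for a small membrane protein. It was 7.91, 7.81, 7.78 and 7.69 log2 in WT and 9.0, 9.02, 8.79 and 8.79 in WT with TNFa, a rise of 1.10 log2 (SE 0.08, adjusted p = 5.9e-08) or 2.15-fold. In mutant organoids it was 7.30, 7.57, 7.48 and 7.26 log2 without TNFa and 8.61, 8.57, 8.67 and 8.58 with it, a rise of 1.21 log2 (adjusted p = 1.9e-08) or 2.31-fold.

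The 1700066B19Rik groups had the order seen for Ecscr: mutant lowest, then WT, then mutant with TNFa, then WT with TNFa. Without TNFa it was lower in mutant than in WT by 0.39 log2 (difference -0.39, SE 0.08, adjusted p = 0.00861), and with TNFa by 0.29 (-0.29, adjusted p = 0.0570), which did not pass. The next gene, Sting1, which encodes the adaptor of cytosolic DNA sensing, rose by 0.34 log2 in WT (SE 0.09, adjusted p = 0.0226) and by 0.51 in mutant (adjusted p = 0.00170). The WT call of Sting1 was lost without WT 3, WT 4, WT + TNFa 3 or WT + TNFa 4, and with only the arrays compared, with adjusted p up to 0.0811. On the other side, Dnajc18 had 0.24 log2 in WT (adjusted p = 0.109) and 0.16 in mutant (0.432), and Spata24 -0.15 (0.195) and -0.01 (0.985). Beside Far2, Il5ra and Gabrp no tested neighbour passed in any of the 4 comparisons. Too dim to be tested were Tmtc1 beside Far2, Cntn6 and Chl1 beside Il5ra, and Ranbp17 and Kcnip1 beside Gabrp. Genes not on the array also lay in between, such as 15 between Il5ra and Chl1. The genes directly beside these 3 were therefore examined only in part. Whether the probe sets of Ecscr and 1700066B19Rik share transcripts was not tested.

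**Figure D3:**
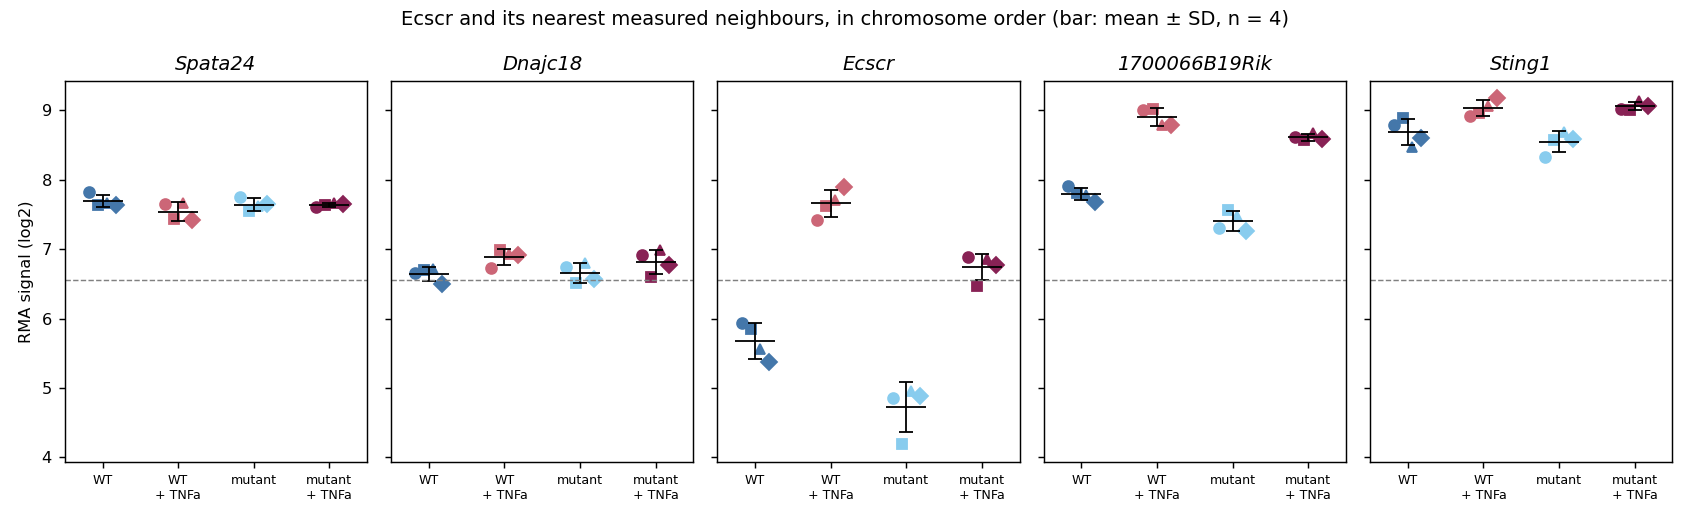
RMA signal (log2, vertical axis) of Ecscr and its nearest measured neighbours, in chromosome order, on each of 16 arrays; symbols give the sample number as before, bars the mean and SD of 4 arrays, and the dashed line the dim limit. Ecscr and 1700066B19Rik show the same order of groups, Sting1 a smaller TNFa rise, and Spata24 and Dnajc18 differences that did not pass.

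Genes that work with the 4 were read from lists, beside the share called in either direction over all tested genes, 10.8% with TNFa in WT and 5.98% in mutant. Of 16 measured genes of fatty alcohol, wax and ether lipid synthesis 13 were tested; 2 rose and 1 fell with TNFa in WT, and 1 rose and 1 fell in mutant. With 13 genes, these counts are too small to set the list apart from all genes. The median TNFa differences of the list were 0.00 log2 in WT and 0.04 in mutant, beside 0.01 and 0.01 over all tested genes. Far1, the other fatty acyl-CoA reductase, differed by -0.11 log2 in WT (adjusted p = 0.471) and -0.03 in mutant (0.929). The triglyceride synthesis gene Dgat1 fell by 0.36 log2 in WT (adjusted p = 0.00796) and by 0.34 in mutant (0.0166; up to 0.0716 without mutant + TNFa 1, mutant + TNFa 2 or mutant 1). Its counterpart Dgat2 rose by 0.40 log2 in mutant (adjusted p = 0.00702) and by 0.28 in WT (0.0449), a WT call that was lost when any 1 of 12 arrays was left out. Acsl5, which activates long fatty acids, rose by 0.28 log2 in WT (0.0178; up to 0.0667 without WT 1 or WT + TNFa 3) and differed by 0.13 in mutant (0.446). Elovl6, a fatty acid elongase named after its values were seen, was the 1 gene of the list called between genotypes. It had -0.35 log2 in untreated mutant against WT organoids (SE 0.06, adjusted p = 0.00398). Over all tested genes 2.48% were called in that comparison, so 1 of 13 does not set the list apart. With TNFa the Elovl6 difference was -0.20 log2 (adjusted p = 0.114). How the Elovl6 call depends on single arrays was not tested.

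The receptor that Il5ra belongs to was measured in part. Csf2rb, the beta chain, was dim in each group, with means of 6.31, 6.42, 6.42 and 6.23 log2 for WT, WT + TNFa, mutant and mutant + TNFa, and was not tested. The ligand gene Il5 was dim as well, between 5.32 and 6.24 log2 on the 16 arrays. Of 15 measured partners, ligands and signal genes 9 were tested; 0 rose and 1 fell with TNFa in WT, and 0 changed in mutant, near the 10.8% and 5.98% of all genes. The fallen gene was Stat5a, a transcription factor that the receptor activates, with -0.25 log2 (adjusted p = 0.0436; lost when any 1 of 9 arrays was left out). The median TNFa differences were 0.04 log2 in WT and 0.07 in mutant.

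The other GABA-A receptor subunit genes were mostly dim. Of 13 other measured subunit genes 2 were tested, Gabra4 and Gabrb2, and neither was called in any of the 4 comparisons; 12 of the 13 were dim in all 4 groups, and the exception, Gabrb2, lay between 6.55 and 7.10 log2 on the 16 arrays. In the wider list of GABA receptors and GABA handling 25 genes were measured and 12 tested, and 1 rose and 1 fell with TNFa in each genotype, which with 12 genes does not set the list apart from the 10.8% and 5.98% of all genes. The fallen gene was Abat, the transaminase that breaks down GABA. Abat went from a mean of 10.37 to 9.80 log2 in WT (-0.57, SE 0.08, adjusted p = 1.5e-04) and from 10.47 to 10.10 in mutant (-0.37, adjusted p = 0.00901), 1.48-fold and 1.29-fold. The risen gene was Slc12a2, a cotransporter that loads cells with chloride. Slc12a2 went from 9.96 to 10.67 log2 in WT (0.71, SE 0.07, adjusted p = 3.3e-06) and from 10.09 to 10.73 in mutant (0.64, adjusted p = 1.3e-05), 1.64-fold and 1.56-fold. The calls of Abat and Slc12a2 held without each array in turn. The list's median differences were 0.00 log2 in WT and -0.04 in mutant.

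Since Ecscr and Il5ra are known from endothelial cells and leukocytes, markers of such cells were read beside them. In the endothelial list 15 of 16 measured genes were dim in all 4 groups, Cdh5 (4.71 to 4.96 log2 in group means) and Pecam1 among them, and the summed signal of the list lay between 9.83 and 10.0 log2 in WT and between 9.86 and 10.1 in WT with TNFa. It was 9.84 to 10.1 log2 in mutant and 9.88 to 10.0 in mutant with TNFa, so the ranges of all groups overlapped. In the eosinophil list 6 of 8 genes were dim throughout, Siglecf, Epx and Prg2 among them, and its sum ran from 9.19 to 9.30 log2 in WT, 9.13 to 9.52 in WT + TNFa, 9.13 to 9.37 in mutant and 9.20 to 9.23 in mutant + TNFa. All 6 measured B and plasma cell genes and 3 of 4 general leukocyte genes, Ptprc and Cd53 among them, were dim in every group. The leukocyte sum ran from 8.17 to 8.27 log2 in WT and from 8.25 to 8.69 in WT + TNFa, with 8.26 to 8.29 and 8.13 to 8.39 in the mutant groups. The top of the WT + TNFa range was array 2, and the other 3 arrays lay between 8.25 and 8.33 log2. The part of these levels in the Il5ra and Ecscr values was not tested. Of the fibroblast and smooth muscle genes 6 of 8 were dim. Above the dim limit in some or all groups were Esam (7.62 to 7.73 log2 in group means) in the endothelial list and Coro1a (7.13 to 7.34) in the leukocyte list. In the eosinophil list they were Gata1 (7.65 to 7.73) and Prg3 (6.52 to 6.58). In the fibroblast and smooth muscle list they were Col1a1 (8.07 to 8.19) and Myh11 (6.65 to 6.74). The sums add signals on the linear scale, so the brighter genes weigh most in them. The tested members of these 5 lists, 8 genes in all, included none called with TNFa in either genotype; at 10.8% and 5.98% of all genes, 0 of 8 is near the background.

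The 10 epithelial markers, Epcam, Cdh1 and Krt8 among them, were bright on every array, between 8.27 and 12.7 log2, and 0 were called with TNFa in WT or mutant, which for 10 genes is near the 10.8% and 5.98% of all genes. Their median TNFa differences were 0.02 log2 in WT and -0.01 in mutant. Of these markers 1, the intestinal transcription factor Cdx2, was lower in untreated mutant than in WT organoids (-0.52 log2, SE 0.11, adjusted p = 0.0158). Over all tested genes 2.48% were called in that comparison, so with 10 markers 1 call does not set the list apart. With TNFa the Cdx2 difference was -0.41 log2 (adjusted p = 0.0650). How the Cdx2 call depends on single arrays was not tested. In RNA from whole organoids, fewer cells of a type and less RNA per cell cannot be told apart, which holds for each difference given here.

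**Figure D4:**
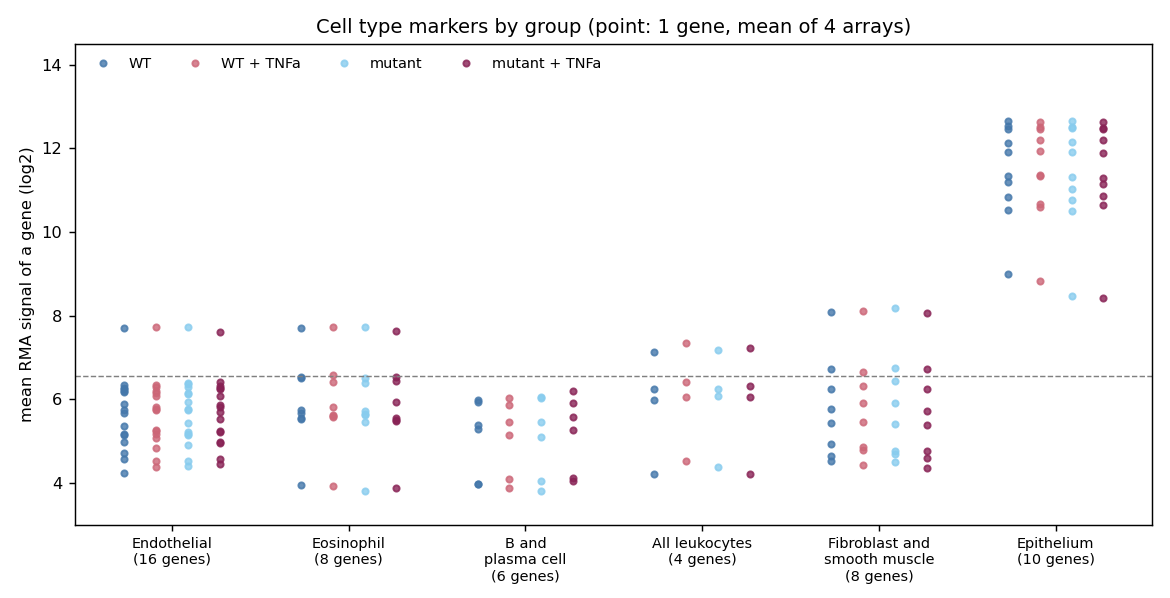
Mean RMA signal (log2, vertical axis) of cell type markers in the 4 groups; each point is 1 gene averaged over 4 arrays, and the dashed line is the dim limit of 6.56 log2. The endothelial, eosinophil, B and plasma cell and leukocyte genes lie mostly below the line in all groups, and the 10 epithelial genes lie above 8 log2.

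The tested genes whose signal followed each of the 4 most closely over the 16 arrays were found by Pearson's r, as a description; the arrays share 4 groups, and much of each r lies between groups. Far2 was followed by Clca3b (r = 0.992), Il1a (0.974) and Cldn14 (0.971). Clca3b, a bright gene of the calcium-activated chloride channel regulator family, had group means of 10.66, 11.74, 10.74 and 12.00 log2 for WT, WT + TNFa, mutant and mutant + TNFa, and so the order of Far2. Ecscr was followed by Cd14 (0.969), Plekhs1 (0.959) and Gsap (0.958), which all had higher means in WT than in mutant at each treatment. Gsap had means of 6.84, 8.55, 6.20 and 7.88 log2 in the same order of groups. Il5ra was followed by Ano6 (0.956), Serp1 (0.952) and Sgcb (0.946), with smaller TNFa differences of 0.37, 0.22 and 0.55 log2 in WT. Gabrp was followed by the sodium-proton exchanger gene Slc9a4 (0.928), Ccl6 (0.926) and Agrn (0.907).

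Among the 4 genes themselves, Ecscr and Il5ra were the most alike over the 16 arrays (r = 0.912), followed by Far2 and Gabrp (0.873), and Il5ra and Gabrp were the least alike (0.646). With each group's mean removed, the correlations ran from -0.10 (Far2 and Ecscr) to 0.39 (Il5ra and Gabrp), so the likeness of Ecscr and Il5ra (0.17) and of Far2 and Gabrp (-0.04) lay almost wholly in the group means.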

How the data were processed

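RNA of 16 organoid samples was amplified, biotin-labelled and read on single-colour Affymetrix arrays. The authors deposited log2 signals computed with RMA in Affymetrix Expression Console, per the submitters' processing notes; versions, array annotation and genome build are not given in the sources used here. Of 19825 probe sets 18851 carried 1 gene symbol in the platform annotation, 0 several and 974 none; each of 18850 genes was represented by its brightest probe set. Genes above their array's 40th percentile (6.40 to 6.56 log2) on at least 4 of 16 arrays were tested, with no further normalization, in 1 limma 3.58.1 fit (R 4.3.3) to 4 groups of 4, with adjusted p under 0.05 (Benjamini-Hochberg) called. The code was tested on simulated arrays. The members, lists and tests were chosen with earlier results of these data known. Named genes were the members, 3 most alike per member, 2 neighbours per side, closest relatives and list genes called with TNFa. Alternatives changed filter, probe set rule, scaling, variance model, weights, arrays fitted and the replicate block. The precision is limited by the number of arrays.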

Additional observations from a re-analysis of the deposited data

Results flagged for a closer look

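Of the 16 groups of 4 arrays, 4 for each of Far2, Ecscr, Il5ra and Gabrp, 1 held an array far from the other 3; chance alone marks about 1 in 20 such groups. Ecscr was 4.19 log2 in mutant sample 2, against 4.85 to 4.96 in the other untreated mutant samples, all of them dim. Without that array the Ecscr difference of untreated mutant from WT organoids, both dim, was -0.78 log2 (adjusted p = 0.00448 in limma). The TNFa difference of Ecscr in mutant was then 1.85 log2. Ecscr was tested only because of its TNFa arrays, so these values are a description.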

How the results depend on the processing

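Over 25 alternative settings, 16 of them leaving out 1 array each, the 20 values of the 4 genes (5 comparisons each) kept sign and side of the threshold, or moved by less than the spread between arrays, in 472 of 486 cases. Many of the 472 could not have come out otherwise. The TNFa differences were judged on the estimate alone. That estimate does not depend on the filter, the variance model, the replicate block or leaving out an array of the other genotype. The cases outside the 472 were 10 lost calls of Il5ra for the genotype difference with TNFa and 4 sign changes of the uncalled Gabrp genotype difference without TNFa. That Il5ra difference was -1.08 log2 with no filter, with a variance trend and robust fitting, and with only the arrays compared, where the call was lost, and ran from -1.27 to -0.86 when 1 array was left out. The Gabrp difference was 0.0585 log2 with array weights and ran from -0.27 to 0.21 when 1 array was left out. At the stricter filter Ecscr and Il5ra were too dim to be tested. The number of genes called for TNFa in WT went from 1269 to 720 with only the arrays compared, and in mutant from 704 to 1095 with array weights. For the genotype difference it went from 292 to 443 without TNFa, and from 317 to 617 with TNFa, under array weights, and to 185 with only the arrays compared and TNFa; leaving out 1 array gave 192 to 340 with TNFa, the lowest without mutant + TNFa 1 (192) and mutant + TNFa 4 (198). For the difference of TNFa effects 1 gene was called, 3 at the stricter filter, 5 with a variance trend and robust fitting, 3 with array weights, 0 with the replicate block and 0 to 4 without 1 array. The cause of these shifts was not tested. The labels do not say whether the sample numbers pair the arrays. Deviations of same-numbered samples from their group means correlated at -0.31 to 0.28, with 5 of 24 pairs above 0.1. An array's best match in another group had its own number in 10 of 48 cases. These counts include pairs across genotypes. Between untreated and treated samples of 1 genotype the correlations ran from -0.30 (WT 2) to 0.19 (mutant 3). Such values cannot show that the numbers carry no pairing. The replicate block changed no call of the 4 genes, with Il5ra at adjusted p = 0.0469 and Far2 at 0.0145 for the genotype difference with TNFa.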
